A study of Mus musculus with 6 samples.

Results

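The Bcl2 family decides whether the mitochondrial route of apoptosis starts, and 10 of its genes are described here: the pro-survival genes Bcl2, Bcl2l1 and Mcl1, the effectors Bax and Bak1, and the BH3-only genes Bcl2l11, Pmaip1, Bbc3, Bid and Bad. They were taken by symbol from the 36291 gene rows of the deposited count table. RNA came from fluorescence-sorted telencephalic cells of Swiss mouse embryos, taken at E14.5. All libraries, control ones included, came from eGFP-positive cells targeted by the Nkx2-1-iCre driver, which acts in the ventral forebrain lineage that yields many cortical interneurons. There were 3 control libraries labelled wild type (WT) and 3 labelled knockout (KO) of Sip1, now called Zeb2, under that driver. Each genotype had 1 library for each of the numbers K77, K79 and K80. The labels leave unstated whether each library is a separate embryo, and p-values then cover only library-to-library spread, which may be technical.

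In this pathway Bax and Bak1 proteins open the outer mitochondrial membrane and release cytochrome c, which starts the caspases. Bcl2, Bcl-xL (encoded by Bcl2l1) and Mcl1 proteins hold them in check. BH3-only proteins relay stress signals, either by binding the pro-survival proteins or by activating the effectors. Developing neurons die largely by this Bax-dependent route, and loss of Bcl-xL or Mcl1 is known to cause death of neurons or neural progenitors in the embryo. Much control of the family is at the protein level, by phosphorylation, cleavage and turnover, which transcript counts do not measure.

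Gene counts ran from 8323531 to 11069437 per library. Zeb2, the targeted gene, was counted 6468, 5350 and 8094 times in the WT libraries K77, K79 and K80 and 2856, 2759 and 3391 times in the KO libraries in that order (log2 fold change -1.11, SE 0.138, edgeR adjusted p = 0.00116). The library WT K79 stood apart in sex-linked transcripts: it held 26109 Xist counts against 13 to 28 in the others, and 3 counts of Ddx3y against 532 to 864. Calls on the members and on other named apoptosis genes that change without it are given beside them. Markers of interneurons from the medial ganglionic eminence (9 genes, among them Lhx6, Nkx2-1 and Gad1) summed to 4546 to 5147 CPM in WT and 5167 to 6048 CPM in KO libraries, CPM being a gene's TMM-scaled share of the reads counted in its library. Of these, Nkx2-1 and Gad2 were called higher (log2 fold change 0.70 and 0.56) and Dlx5 lower (-0.45). The Dlx5 call was lost without WT K77, WT K80, KO K79 or KO K80, and Lhx8 was called higher without WT K79 (0.92, adjusted p = 0.000215) and with the K number as a block (0.65, adjusted p = 0.00980). Cortical glutamatergic markers summed to 211 to 453 and 235 to 304 CPM, erythroid markers to 17.9 to 30.9 and 10.1 to 23.6 CPM, with Hba-a1 at 0 in all libraries. Endothelial and pericyte markers summed to 24.97 to 43.8 and 24.0 to 34.5 CPM, and microglial ones to 3.74 to 5.34 and 3.26 to 4.21 CPM. No marker of these other cell types was called in the main fit. By edgeR, the erythroid Hbb-y was called lower with the K number as a block (-1.04, adjusted p = 0.0217). The glutamatergic Eomes was called lower without WT K80 (-0.54, edgeR adjusted p = 0.0270). The part these cell types have in the results below was not tested.

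The family did not move as a block: BH3-only genes changed in opposite directions, the effectors gave no call, and 1 pro-survival gene rose by a small amount. By edgeR at adjusted p under 0.05, 2 of the 10 members were higher in KO (Pmaip1 and Bcl2l1), 1 was lower (Bcl2l11) and 7 were not called. Across all 13835 genes tested, 6.27% were called, 3.64% higher and 2.62% lower. For 5 members the KO and WT libraries did not overlap (Bcl2l1, Bcl2l11, Pmaip1, Bbc3 and Bid), against 23.2% of all tested genes. The median log2 fold change of the members was 0.11, and that of all tested genes was -0.01. All 10 passed the filter on low counts, but Pmaip1 passed only through the KO libraries, so counts over the members that passed are a description. In these bulk libraries fewer cells with a transcript and less transcript per cell cannot be told apart.

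**Figure D1:**
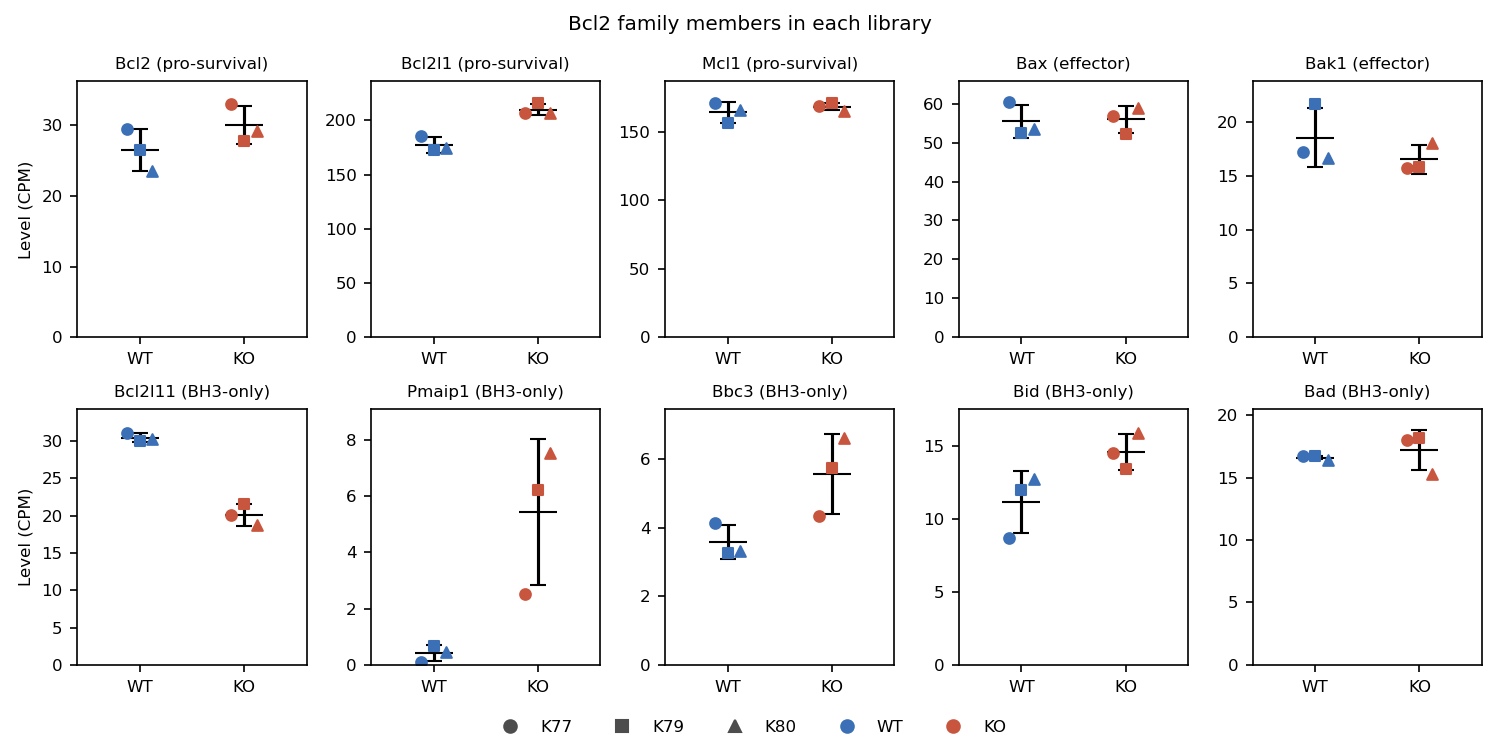
Level of each of the 10 members in CPM (y axis, from 0, a scale of its own per panel) in the 3 WT and 3 KO libraries. Marker shape gives the K number, and the bar and whiskers are the mean and SD over 3 libraries. Pmaip1 lay at 0.11 to 0.67 CPM in WT and 2.53 to 7.52 CPM in KO, whereas Bax and Mcl1 overlapped between genotypes.

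Pro-survival genes differed little. Bcl2l1 stood at 185, 172 and 174 CPM in WT K77, K79 and K80 and at 207, 216 and 207 CPM in the KO libraries in the same order. Each KO library was above each WT library, by 1.18-fold on average (log2 fold change 0.24, SE 0.0547, edgeR adjusted p = 0.0278). That call was lost without WT K79, WT K80 or any 1 KO library (adjusted p 0.0580 to 0.123), while the log2 fold change stayed between 0.22 and 0.28. In the authors' deposited table Bcl2l1 had a log2 fold change of 0.24 and an adjusted p of 0.116.

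Mcl1, a short-lived protein's gene, was at 171, 156 and 166 CPM in WT and 169, 171 and 165 CPM in KO. The genotypes overlapped, and the log2 difference was 0.04 with a 95% interval of -0.09 to 0.16. Bcl2, the founding member, was at 29.5, 26.6 and 23.5 CPM in WT and 33.1, 27.8 and 29.2 CPM in KO. Here the genotypes overlapped too, with a log2 difference of 0.18 and an interval of -0.07 to 0.42. Its exons share 558 bases with the antisense gene D630008O14Rik, so its counts are uncertain where strand was not used. Neither gene was called (edgeR adjusted p = 0.808 for Mcl1 and 0.462 for Bcl2), and the intervals leave room for a small rise or a small fall in both.

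The effector genes gave no call. Bax was at 60.4, 52.6 and 53.4 CPM in WT and 56.8, 52.3 and 59.0 CPM in KO, so the libraries interleaved. Its log2 difference of 0.02 had a 95% interval of -0.17 to 0.20. It shares 192 exonic bases with Gm45808 on the same strand, a gene with no row in the table. Bak1 was at 17.2, 21.7 and 16.7 CPM in WT and 15.8, 15.8 and 18.04 CPM in KO, with WT K79 above all other libraries. Its log2 difference was -0.16, with an interval of -0.46 to 0.13, and -0.04 without WT K79. Bak1 counts are uncertain, because its exons overlap those of Ggnbp1 on the other strand and no source used here says whether the counting used strand.

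The largest change in the family was that of Pmaip1, which encodes Noxa, a BH3-only protein known to bind Mcl1 and to be induced by p53 and other stress pathways. Its counts were 1, 7 and 5 in the WT libraries K77, K79 and K80 and 21, 63 and 83 in the KO libraries in the same order. The KO libraries were all above the WT libraries, and KO K77 was the lowest of the KO libraries. The level rose from 0.419 ± 0.286 to 5.42 ± 2.59 CPM (SD, n = 3 libraries per genotype), or by 3.64 on the log2 scale (SE 0.533, adjusted p = 0.00290 by edgeR). As so few WT counts make that fit imprecise, the ratio was also taken from the summed counts, 167 in KO against 13 in WT. It was 13.1, with an exact 95% interval of 7.47 to 25.2 that covers counting error only. The call held without any 1 library (adjusted p up to 0.0178, log2 fold change 3.24 to 4.13). In the authors' deposited table its log2 fold change was 3.69, with an adjusted p of 1.1e-17.

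Bcl2l11 moved the other way. It encodes Bim, a BH3-only protein that binds every pro-survival member and is known for its part in neuronal death after loss of trophic support. Its level was 31.1, 29.9 and 30.2 CPM in WT K77, K79 and K80 and 20.1, 21.6 and 18.7 CPM in KO. The genotypes were well apart, and WT varied little, at 30.4 ± 0.596 CPM against 20.1 ± 1.47 CPM in KO (SD, n = 3 each). The log2 fold change was -0.60 (SE 0.0928, edgeR adjusted p = 0.00408), a fall of 1.51-fold. The fall was seen in each K number, at -0.61, -0.45 and -0.66 on the log2(CPM + 1) scale for K77, K79 and K80. It held without any 1 library (adjusted p up to 0.0271) and had an adjusted p of 0.000888 in the authors' deposited table.

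Bbc3, which encodes Puma, a p53 target that binds all pro-survival members, was at 4.14, 3.26 and 3.32 CPM in WT and 4.33, 5.72 and 6.62 CPM in KO. The KO libraries lay above the WT ones, though KO K77 exceeded WT K77 only slightly. The log2 difference of 0.65 (SE 0.217, 95% interval 0.17 to 1.14) did not pass the test (edgeR adjusted p = 0.128). Bid, whose protein is cut by caspase 8 and links death receptors to mitochondria, was at 8.72, 11.997 and 12.7 CPM in WT and 14.55, 13.4 and 15.9 CPM in KO. WT K77 was the lowest, and the difference of 0.39 (SE 0.159, 95% interval 0.03 to 0.74) did not pass either (edgeR adjusted p = 0.222). Bid exons overlap those of Bcl2l13 on the other strand, which stood at 102 ± 3.19 CPM in WT and 104 ± 5.62 CPM in KO (SD, n = 3 each).

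Bad, whose protein is held inactive by Akt phosphorylation, was at 16.7, 16.7 and 16.4 CPM in WT and 18.04, 18.2 and 15.3 CPM in KO. KO K80 fell below all WT libraries and the other KO libraries lay above them. The log2 difference of 0.05 had an interval of -0.21 to 0.30 (edgeR adjusted p = 0.884). Its exons overlap those of Gpr137 on the other strand, a gene with a log2 difference of 0.17 (edgeR adjusted p = 0.292), so Bad counts are uncertain as well.

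**Figure D2:**
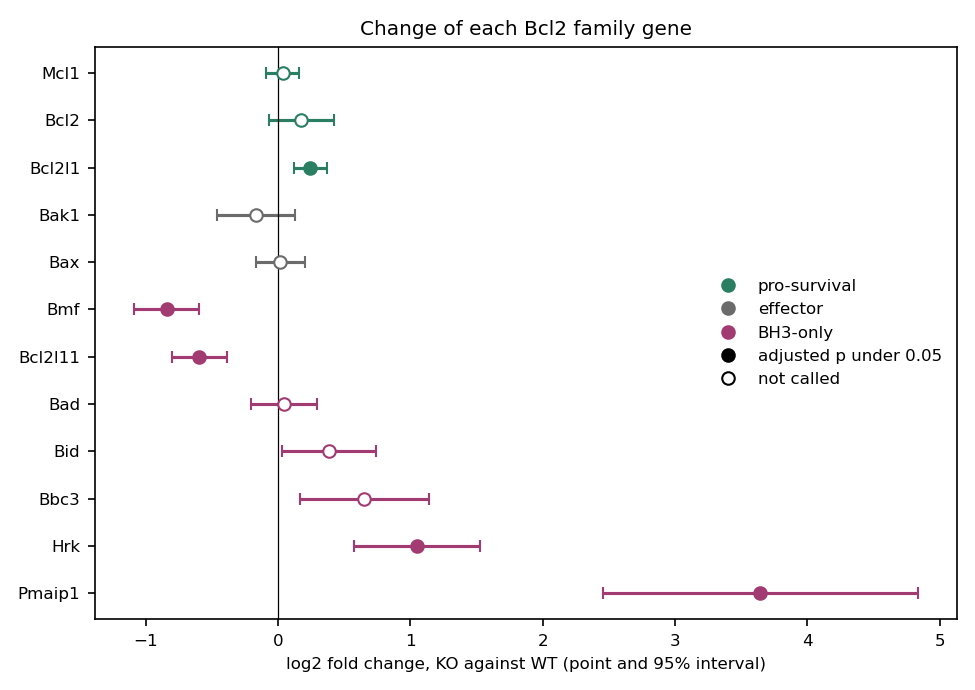
Log2 fold change of KO against WT (x axis) for the 10 members and for Bmf and Hrk, ordered by role. Points are edgeR estimates, bars their 95% intervals, and filled points passed an adjusted p of 0.05. BH3-only genes spread from -0.84 (Bmf) to 3.64 (Pmaip1), while the pro-survival and effector genes lie between -0.16 and 0.24.

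For Bcl2l1 and Bcl2l11, the called members with a RefSeq promoter entry that is printed here, the 250 bases before the annotated start are shown, so that the letters searched can be seen. The windows are of build GRCm38.p6, from RefSeq, and the deposited counts were made on mm9. They are given on the gene's strand, with matches to GTAAACA, the core that FoxO factors bind, in capitals. The first is chr2:128125788-128126037 on the plus strand, at the more upstream of 2 starts, and the second is chr2:152831729-152831978 on the minus strand, at the most upstream of 3 starts.
Bcl2l11: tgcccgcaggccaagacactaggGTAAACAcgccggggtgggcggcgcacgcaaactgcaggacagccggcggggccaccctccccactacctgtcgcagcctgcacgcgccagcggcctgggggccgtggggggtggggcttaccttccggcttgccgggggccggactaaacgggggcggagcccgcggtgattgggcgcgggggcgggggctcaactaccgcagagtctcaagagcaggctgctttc
Bcl2l1: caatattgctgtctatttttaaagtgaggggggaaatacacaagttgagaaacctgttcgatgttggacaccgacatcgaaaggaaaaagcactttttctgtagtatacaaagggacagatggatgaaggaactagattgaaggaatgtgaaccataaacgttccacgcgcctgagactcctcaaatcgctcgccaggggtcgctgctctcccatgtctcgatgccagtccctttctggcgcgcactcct

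Pmaip1 was left out of the promoter search, so nothing is said here of its promoter. For the other 9 of the 10 members there were 15 windows of 250 bases in all. On either strand, GTAAACA was found in 2 of these windows, against 3.17% of 32851 windows genome-wide. They belonged to 1 of 2 Bcl2l11 windows, 227 bases before that start, and to 1 of 3 Bbc3 windows, 167 bases before that start. CACCT, the core that Zeb2 binds, was found in 2 of the 15 windows (1 each for Bad and Bbc3) against 46.0% of all. The longer CACCTG, which contains it, was in the same 2 windows, against 17.2% of all. Neither was found in the windows printed above. GC content of the 15 windows ran from 47.6% (Bcl2l1) to 81.6% (Bbc3), against a median of 52.4% over all windows. Some members had more than 1 window, and Bbc3 windows overlapped, so the windows are not independent. What part GC content has in these shares was not tested. A match is a run of letters only, and no binding was measured here.

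Per kilobase of exon, Mcl1, Bcl2l1 and Bax were the highest members in both genotypes. This scale divides CPM by the union of GENCODE exons of the later build, so it is approximate. In WT the level was 48.1 ± 2.24 CPM per kilobase for Mcl1, 38.7 ± 1.56 for Bcl2l1 and 35.2 ± 2.72 for Bax (SD, n = 3). Bcl2l1 and Bax did not separate in WT, where WT K77 Bax (38.3) lay above WT K79 Bcl2l1 (37.6). Next came Bak1 (7.70 ± 1.14), Bad (6.49 ± 0.0607), Bcl2l11 (3.79 ± 0.0742), Bid (3.14 ± 0.59997), Bcl2 (2.90 ± 0.328) and Bbc3 (1.68 ± 0.232). Among these neighbours only Bid and Bcl2 overlapped in WT, and the lowest Bak1 library (6.94) was close to the highest Bad library (6.53). Pmaip1 was last, at 0.153 ± 0.105 CPM per kilobase. In KO the order of the lower members changed: Bid (4.12 ± 0.344) and Bcl2 (3.28 ± 0.297) were above Bcl2l11 (2.51 ± 0.183), Bbc3 stood at 2.62 ± 0.543 and Pmaip1 reached 1.98 ± 0.949, and the libraries of both overlapped those of Bcl2l11.

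**Figure D3:**
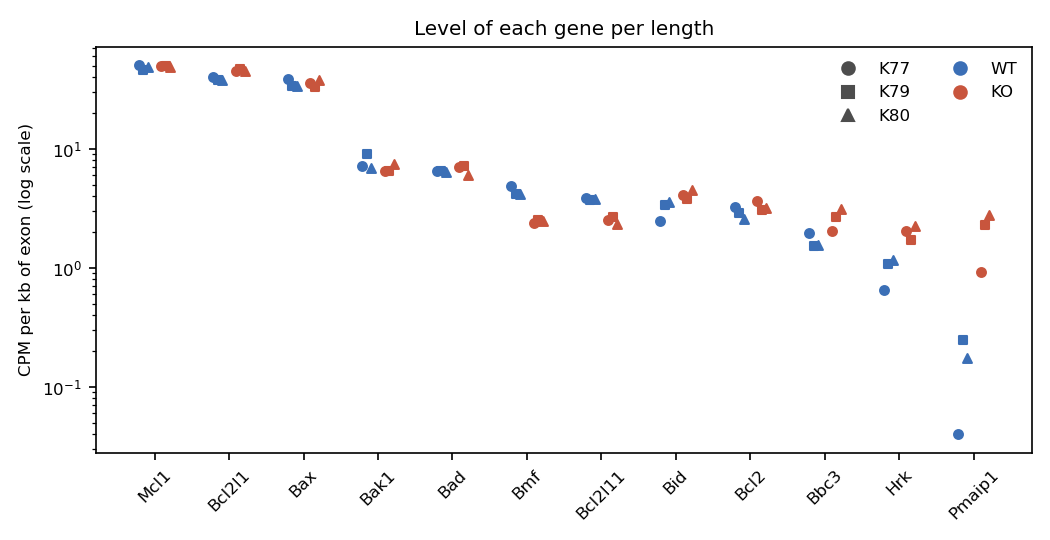
Level per kilobase of exon (y axis, CPM per kilobase, log scale) of the 10 members with Bmf and Hrk, 1 point per library, ordered by the WT mean. Mcl1, Bcl2l1 and Bax sit highest in all libraries, and Pmaip1 rises from 0.153 to 1.98 on average.

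Setting pro-survival against pro-death members gave no single direction. The mean log2(CPM + 1) of the 3 pro-survival members minus that of the 7 pro-death members was 3.05, 2.81 and 2.85 in WT K77, K79 and K80 and 2.91, 2.68 and 2.58 in the KO libraries. The genotypes overlapped, KO K77 lying above WT K79 and WT K80, and the KO mean was lower by 0.18 (2.72 ± 0.169 against 2.90 ± 0.131, SD, n = 3). Against Bax and Bak1 alone the same score was higher in KO by 0.22 (1.57, 1.38 and 1.53 in WT against 1.77, 1.78 and 1.59 in KO), with no overlap. Within each K number the first score was lower in KO and the score against Bax and Bak1 was higher. Of the 7, Pmaip1 differed most, by 1.67, 2.11 and 2.53 on this scale in K77, K79 and K80. It had 13 WT counts in all and passed the filter only through KO, so the sign of the first score leans on it. The score without Pmaip1 alone was not taken. Without Pmaip1 and Bcl2l11 among the 7, the difference was -0.0074. That score also drops Bcl2l11, which moved the other way, so it does not show the sign without Pmaip1 alone. The lower first score in KO therefore holds only with Pmaip1 counted in. These are scores over chosen members and carry no test.

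Ratios between single members within a library, in which gene length cancels out between genotypes, are given next. The log2 ratio of Bcl2l1 to Bcl2l11 was 2.58, 2.52 and 2.53 in WT and 3.36, 3.32 and 3.47 in KO, a difference of 0.84 with the genotypes far apart. Bcl2l1 was called higher and Bcl2l11 lower, so this gap follows from those calls. The log2 ratio of Bcl2l1 to Bax was 1.62, 1.71 and 1.70 in WT and 1.87, 2.05 and 1.81 in KO, also with no overlap. That of Bcl2l1 to Bak1 was 3.43, 2.99 and 3.38 in WT and 3.71, 3.77 and 3.52 in KO, again with no overlap. In the ratios taken without Bcl2l1 the genotypes overlapped. Bcl2 to Bax was -1.03, -0.98 and -1.18 in WT and -0.78, -0.91 and -1.02 in KO. Mcl1 to Bak1 was 3.31, 2.85 and 3.31 in WT and 3.42, 3.44 and 3.20 in KO.

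**Figure D4:**
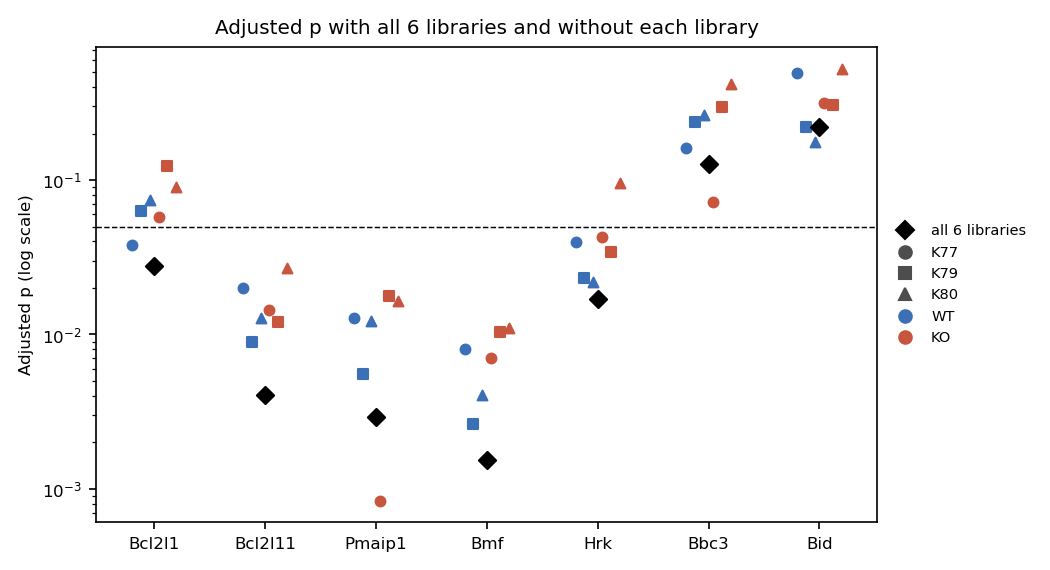
Adjusted p (y axis, log scale) of 7 Bcl2 family genes with all 6 libraries (black diamonds) and without each library in turn (colour and shape name the library left out). The dashed line marks 0.05. Bcl2l11, Pmaip1 and Bmf stay below it in each case. When 1 library is left out, Bcl2l1 stays below it only without WT K77.

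Outside the members, the called genes of the family were Hrk (higher) and Bmf (lower), both BH3-only. Of 15 other family genes, 9 were tested, 1 rose, 1 fell and 7 were not called, with a median log2 fold change of -0.06. Of all tested genes, 3.64% were called higher and 2.62% lower. Hrk, encoding Harakiri, a BH3-only protein of neurons that binds Bcl2 and Bcl-xL, was at 3.71, 6.14 and 6.55 CPM in WT and 11.7, 9.77 and 12.8 CPM in KO. It rose in each K number, by 1.05 on the log2 scale (SE 0.213, edgeR adjusted p = 0.0169), and the adjusted p was 0.0957 without KO K80. Bmf, whose protein is released from the cytoskeleton on loss of attachment, was at 25.4, 21.9 and 22.02 CPM in WT and 12.4, 13.1 and 13.1 CPM in KO. It fell by 0.84 (SE 0.111, edgeR adjusted p = 0.00153), a call held without any 1 library. The pro-survival gene Bcl2l2 was at 48.0 ± 6.60 CPM in WT and 48.3 ± 3.48 CPM in KO (SD, n = 3 each). Bnip3l, a mitophagy gene, was not called (-0.16, edgeR adjusted p = 0.385) but fell without WT K79 (-0.27, adjusted p = 0.0349). Bcl2a1a, Bcl2a1b and Bcl2a1d had 0 counts in all libraries, which allows up to 0.271 to 0.360 CPM by counting error. They are near-identical copies, so reads shared between them may not have been counted.

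Downstream of the mitochondria, the apoptosome and caspase genes gave no call over all 6 libraries with the filter on low counts and no pairing. Of 14 listed, 13 were tested and edgeR called 0, with 5 below 0.05 before adjustment (18.4% of all tested genes were), and neither DESeq2 nor limma voom called any (0 each). The median log2 fold change was -0.13. Casp9, the initiator caspase of the mitochondrial route, was at 48.0, 52.3 and 45.6 CPM in WT and 40.2, 39.4 and 39.1 CPM in KO. The genotypes did not overlap (log2 difference -0.30, SE 0.0789, edgeR adjusted p = 0.0550). Apaf1, the scaffold that activates it, differed by -0.22 (SE 0.0715, adjusted p = 0.113). With the K number as a block, where 10.6% of all tested genes were called, both were called lower (adjusted p = 0.0323 for Casp9 and 0.0464 for Apaf1). Casp9 was also called with no filter (0.0450) and without WT K80 (0.0496).

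Among 10 caspase inhibitors, 5 were tested, 1 fell, 0 rose and 4 were not called (median log2 fold change -0.02). Of all tested genes, 2.62% were called lower. The gene that fell was Birc5, encoding survivin, which also acts in chromosome segregation. It was at 24.2, 24.0 and 22.97 CPM in WT and 19.4, 17.96 and 16.8 CPM in KO. This was a log2 change of -0.40 (SE 0.10005, adjusted p = 0.0446 by edgeR). The call was lost without any 1 library (adjusted p 0.0515 to 0.188) and with DESeq2 (0.112). Xiap, the direct caspase inhibitor, differed by 0.10 (adjusted p = 0.413).

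The p53 pathway list was examined because Pmaip1 and Bbc3 are known p53 targets. Of 18 listed, 16 were tested and edgeR called 0, with 3 below 0.05 before adjustment, against 18.4% of all tested genes. DESeq2 called 1 and limma voom 0. The median log2 fold change was -0.05. Lrdd, the older symbol of Pidd1, a death domain gene, had the lowest p and lay lower in KO, at 25.7, 19.4 and 16.5 CPM in WT and 13.8, 15.1 and 10.9 CPM in KO (log2 difference -0.63, SE 0.182, edgeR adjusted p = 0.0776). The calls came with the block (adjusted p = 0.0136), by DESeq2 (0.0284), with no filter (0.0101), without WT K80 (0.0396) and in the authors' deposited table (0.00387). Sesn2, a stress-response gene, was next, at 5.51 ± 0.178 CPM in WT and 7.86 ± 1.16 CPM in KO (SD, n = 3 each; log2 difference 0.51, adjusted p = 0.122). Trp53inp1 was called higher with the block only (0.21, adjusted p = 0.0459). Trp53 itself differed by -0.17 (adjusted p = 0.431), its inhibitor gene Mdm2 by -0.05 (0.820), and the p53 target Cdkn1a by 0.42 (0.410), none past the test.

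Death receptor and adaptor genes were mostly low. Of 10 listed, 7 were tested and edgeR called 0, with 4 below 0.05 before adjustment, against 18.4% of all tested genes. Neither DESeq2 nor limma voom called any (0 each), and the median log2 fold change was -0.25. Ngfr, the p75 neurotrophin receptor gene, was at 9.49, 13.1 and 13.6 CPM in WT and 4.57, 9.77 and 6.71 CPM in KO, and KO K79 overlapped WT K77. Its log2 difference of -0.77 (SE 0.249, edgeR adjusted p = 0.116) passed with the block (-0.79, adjusted p = 0.0162), with no filter (-0.78, adjusted p = 0.0203) and without KO K79 (-1.08, adjusted p = 0.0455). In the authors' deposited table Ngfr had an adjusted p of 0.00531. Tnfrsf21, or death receptor 6, stood at 81.4 ± 2.04 CPM in WT and 93.5 ± 6.17 CPM in KO (SD, n = 3 each; log2 difference 0.20, adjusted p = 0.137).

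Of 16 regulators of BH3-only genes and of Mcl1, 15 were tested and edgeR called 0. Before adjustment 3 were below 0.05, against 18.4% of all tested genes. DESeq2 called 1 and limma voom 0 (median log2 fold change -0.06). Mapk10, the neuronal JNK gene, differed by -0.29 (SE 0.0846, edgeR adjusted p = 0.0810). It passed with the block (0.0495), by DESeq2 (0.0237), with no filter (0.0140), without WT K79 (-0.37, adjusted p = 0.0120) and without both K79 libraries (-0.40, adjusted p = 0.0281). In the authors' deposited table Mapk10 had an adjusted p of 0.0231. E2f1, a cell cycle factor known to act on BH3-only genes, differed by -0.30 (adjusted p = 0.153). Foxo3, a known activator of Bcl2l11, was at 63.6 ± 9.00 CPM in WT and 61.0 ± 0.665 CPM in KO (SD, n = 3 each), a log2 difference of -0.06 (adjusted p = 0.826). The 5 mitochondrial channel genes gave 0 edgeR calls, 0 below 0.05 before adjustment and 0 calls from DESeq2 and limma voom, with Vdac3 (0.11) and Ppif (-0.06) at the lowest p.

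**Figure D5:**
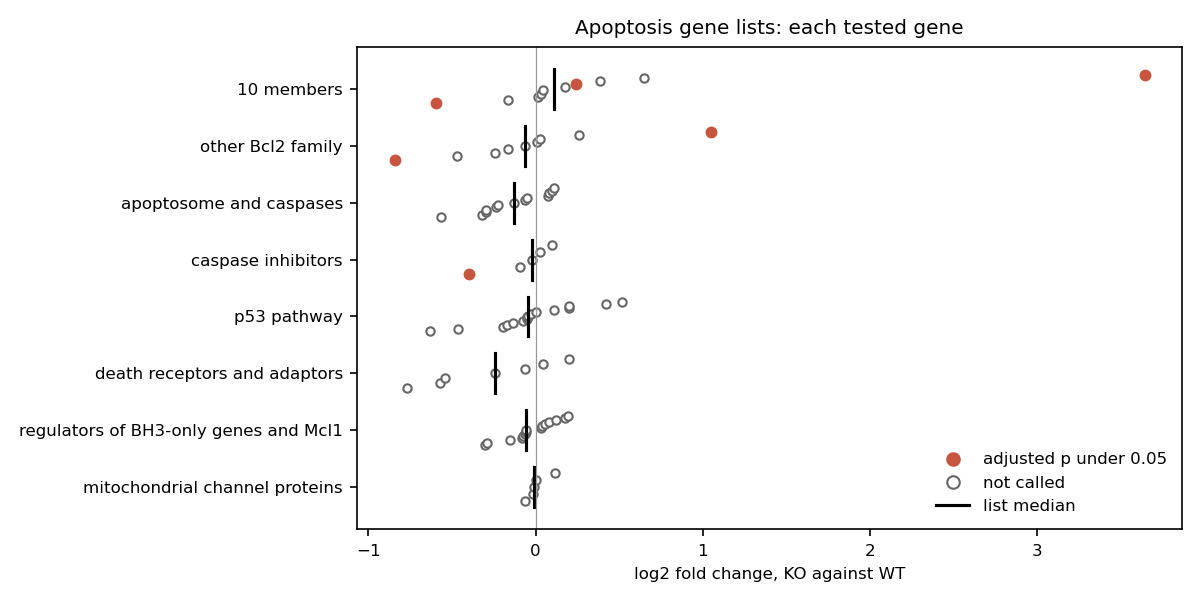
Log2 fold change of KO against WT (x axis) for each tested gene of the 10 members and of 7 other apoptosis lists, 1 point per gene, filled where adjusted p was under 0.05, with a black bar at each list's median. The called genes outside the 10 members are Bmf, Hrk and Birc5, and the medians lie between -0.25 and 0.11.

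The genes most like Pmaip1 across the 6 libraries, among those with a mean of at least 5 CPM, were Nat14, Cdk5r2 and B630019K06Rik. Pearson's r of log2(CPM + 1) was 0.996 for Nat14, 0.996 for Cdk5r2, which encodes an activator of the neuronal kinase Cdk5, and 0.994 for B630019K06Rik. Cdk5r2 was at 26.2, 27.1 and 26.9 CPM in WT K77, K79 and K80 and 31.6, 34.7 and 36.0 CPM in KO. In this gene too KO K77 was the lowest of the KO libraries. The genes were picked for this likeness, and the 6 points share 2 genotypes, so r is a description.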

How the data were processed

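Poly-A RNA was read in single reads of 36 cycles after 15 PCR cycles, per the labels' protocols. The authors deposited whole-number read counts per gene symbol. They also deposited a table of their own comparison, holding the ratio of group means, the log2 of that ratio, p-values and adjusted p-values. Per the submitters' processing notes, TopHat 1.2.0, HTSeq 0.5.3p3, DESeq 1.2.2 and the mm9 build were used. No source used here gives the annotation or the use of strand in counting. Reads outside genes (19.7% to 21.8% of all counts) and ambiguous ones (1.94% to 1.99%) were left out. The authors' table was read as KO over WT, since all 777 shared calls had the sign found here.

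Counts were tested with edgeR 4.0.16 in R 4.3.3: TMM scaling, filterByExpr at a minimum count of 10, and the quasi-likelihood test with Benjamini-Hochberg adjustment over 13835 genes. The script was tested on simulated data. SEs were derived from the fold change and F statistic. DESeq2 1.42.0, limma voom 3.58.1, other scaling and filters, a replicate block and each library left out were alternatives. Leaving out both K79 libraries, and the score without Pmaip1 and Bcl2l11, were added after seeing the data. Same-numbered libraries deviated together (r was 0.274 in K77, 0.216 in K79 and 0.196 in K80). Pairs with unlike numbers had r of -0.186 to -0.0212. The numbers were therefore taken to pair the libraries in the block alternative, while the main fit used no pairing.

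The members and lists were chosen with earlier results of these data known. Named were all members and, per other list, the called genes or else the 2 of lowest p. Bcl2l2, Bcl2l13, Bnip3l, Xiap, Trp53inp1, Trp53, Mdm2, Cdkn1a and Foxo3 were named in addition, after their values were seen. Protein sequences were not used here.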

Additional observations from a re-analysis of the deposited data

How the results depend on the processing

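Bcl2l11, Pmaip1 and Bmf kept their direction and their call in all 14 alternatives. With the replicate block 1463 genes were called in place of 867, and 9 genes of the 7 other apoptosis lists in place of 3, while the block changed no member's call. With no filter on low counts 7 genes of those lists were called. Leaving out 1 library gave 445 (without KO K80) to 1044 (without WT K79) called genes, and 528 without WT K77 and 498 without KO K79. It gave 2 to 3 called members, and 1 (without KO K80) to 4 called genes in the lists. The pro-survival minus pro-death score, with Pmaip1 counted in, differed by -0.27 to -0.11 with 1 library left out. With 0.5 in place of 1 added to CPM it differed by -0.26. It differed by 0.22 against the effectors Bax and Bak1 only, and by -0.0074 without Pmaip1 and Bcl2l11. The last 2 change which members enter the score. Across single genes and alternatives, 335 values kept direction and call, 16 gained a call, 15 lost one and 12 changed sign. The 12 were all of genes with no call in either setting. With 1 library left out, the log2 difference ranged from -0.0015 to 0.065 for Mcl1, from -0.026 to 0.079 for Bax, from -0.00086 to 0.12 for Bad, from -0.0021 to 0.20 for Vdac3, from -0.12 to 0.017 for Ppif and from -0.018 to 0.060 for Bcl2l13. Without both K79 libraries it was -0.0075 for Mcl1, 0.0035 for Bak1, 0.053 for Ppif and -0.0053 for Bcl2l13. Depth limits Pmaip1 in WT, where 13 counts in all were seen.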
